A study of Homo sapiens with 6 samples.

Results

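Transcript levels of the 8 condensin subunit genes, SMC2, SMC4, NCAPD2, NCAPG, NCAPH, NCAPD3, NCAPG2 and NCAPH2, were compared between control and Stau1-transfected cells held in prometaphase. The members were the rows of the deposited table whose name equalled one of these symbols, and all 8 were found among its 37879 rows. None of the 8 was called at an adjusted p under 0.05 in limma's test, as was none (0%) of the 13285 rows tested, and the values of both groups overlapped for every subunit. The subunits found in condensin II alone, NCAPD3, NCAPG2 and NCAPH2, each differed by -0.04 on the log2 scale (Stau1 minus control), a sign that median scaling turned. NCAPH, a condensin I subunit whose signal lay close to background, was 0.48 higher on the log2 scale in the Stau1 group, with a 95% confidence interval from -0.06 to 1.01. This was the largest of the 8 differences with the processing used here, but with the background inferred from all rows it was 0.02, below those of NCAPG, SMC4 and SMC2.

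The total RNA was that of HEK293T, an embryonic kidney cell line of human origin in which SV40 large T antigen is expressed. There were 3 control samples, transfected with the empty vector, and 3 samples transfected with a plasmid for Stau155-FLAG, the FLAG-tagged 55-kDa isoform of Staufen1, an RNA-binding protein; the latter are called Stau1 below. Both groups received nocodazole at 50 ng/ml, per the labels over 15 h (a longer time is stated in the methods), which blocks spindle assembly and arrests cells in prometaphase. Each sample was hybridised to 1 Illumina HumanWG-6 v3 array. Transfection was transient, so the array reads a mixture of cells that took up the plasmid and cells that did not. In such bulk RNA, fewer cells of a kind and less RNA per cell cannot be told apart. The labels do not say that the replicates were separate cultures, so the p-values measure only the spread between these samples, which may be technical.

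Condensins are ring-shaped ATPase complexes that compact chromosomes for mitosis. Both condensin I and condensin II contain the ATPases SMC2 and SMC4, which dimerise. A kleisin subunit, NCAPH in condensin I and NCAPH2 in condensin II, closes the ring between the ATPase heads and holds a pair of HEAT-repeat subunits, NCAPD2 and NCAPG or NCAPD3 and NCAPG2, which contact DNA. Condensin II is nuclear through interphase and begins compaction in prophase, whereas condensin I is largely cytoplasmic and reaches the chromosomes after the nuclear envelope breaks down, that is, at the stage at which these cells were held.

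Several condensin genes are transcribed with the cell cycle, so their promoters were read for 5 elements of cell cycle promoters in both strands: the cell cycle genes homology region or CHR, whose letters are TTTGAA, a first variant of it with the letters TTCGAA, a second variant with the letters TTTAAA, the CCAAT box, to which NF-Y binds, and an E2F-type site, GGCGGGAAA. RefSeq promoter windows of the GRCh38.p14 assembly, 250 bases before and 50 bases after an annotated transcript start, were matched for 7 of the 8 genes and gave 10 windows, since SMC2, SMC4 and NCAPD3 have more than one start. The TTTGAA motif was in 6 of the 10 windows, one each for SMC2, SMC4, NCAPG, NCAPG2, NCAPD2 and NCAPD3, and in 15.2% of all 35116 windows. The CCAAT box was in 3 of the 10 windows, those of NCAPD2, NCAPD3 and NCAPH, and in 34.6% of all windows. TTTAAA was in 1 window, that of NCAPH, and in 12.2% of all; GGCGGGAAA was in 1 window, that of NCAPD3, and in 0.777% of all; TTCGAA was in none of the 10 and in 1.45% of all. No match overlapped another in the condensin windows. A match is a string of letters and was not tested as a binding site.

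Stretches of 6 windows with a CHR motif or a CCAAT box are printed below, 5′ to 3′ on the strand of the gene, with the CHR motif and the CCAAT box, or their reverse complements, in capitals and positions counted from +1 at the start. They lie before an annotated transcript start, and those of SMC2 and NCAPD3 also hold the first 3 bases of the first exon. SMC2 (chr9:104094212-104094311, plus strand) carried the motif reversed across the start, from -3 to 3, SMC4 (chr3:160399550-160399649, plus strand) carried it reversed from -75 to -70, and NCAPG (chr4:17810879-17810978, plus strand) carried it from -35 to -30. These 3 are shown because their transcripts varied in the same order among the control arrays, as described below. NCAPD2, NCAPG2 and NCAPD3 also carried the motif and did not show that order, and a link between motif and order was not tested.
SMC2: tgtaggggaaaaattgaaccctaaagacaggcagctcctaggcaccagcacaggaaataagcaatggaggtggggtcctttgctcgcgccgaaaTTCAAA
SMC4: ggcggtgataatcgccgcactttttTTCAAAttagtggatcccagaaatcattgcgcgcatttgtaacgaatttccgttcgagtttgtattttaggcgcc
NCAPG: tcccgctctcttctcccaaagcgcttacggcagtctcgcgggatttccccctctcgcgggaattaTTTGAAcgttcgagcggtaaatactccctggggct
NCAPD2 (chr12:6493892-6494101, plus strand) is shown for its 4 CCAAT boxes, all in reverse, at -199 to -195, -170 to -166, -70 to -66 and -30 to -26, around a TTTGAA at -145 to -140. NCAPD3 (chr11:134223965-134224087, minus strand, the second of its starts) held 2 reversed CCAAT boxes, at -110 to -106 and -45 to -41, and TTTGAA from -3 to 3. NCAPH (chr2:96335646-96335765, plus strand) had a CCAAT box at -112 to -108 and no TTTGAA.
NCAPD2: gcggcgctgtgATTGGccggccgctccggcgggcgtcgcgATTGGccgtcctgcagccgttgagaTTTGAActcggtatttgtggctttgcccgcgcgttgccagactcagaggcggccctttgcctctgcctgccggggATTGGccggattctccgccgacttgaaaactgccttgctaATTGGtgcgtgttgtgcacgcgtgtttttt
NCAPD3: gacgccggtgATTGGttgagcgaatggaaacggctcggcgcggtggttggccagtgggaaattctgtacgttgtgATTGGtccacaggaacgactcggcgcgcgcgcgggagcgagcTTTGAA
NCAPH: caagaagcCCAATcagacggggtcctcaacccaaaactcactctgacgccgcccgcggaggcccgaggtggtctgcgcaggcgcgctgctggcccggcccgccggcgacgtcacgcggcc

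**Figure D1:**
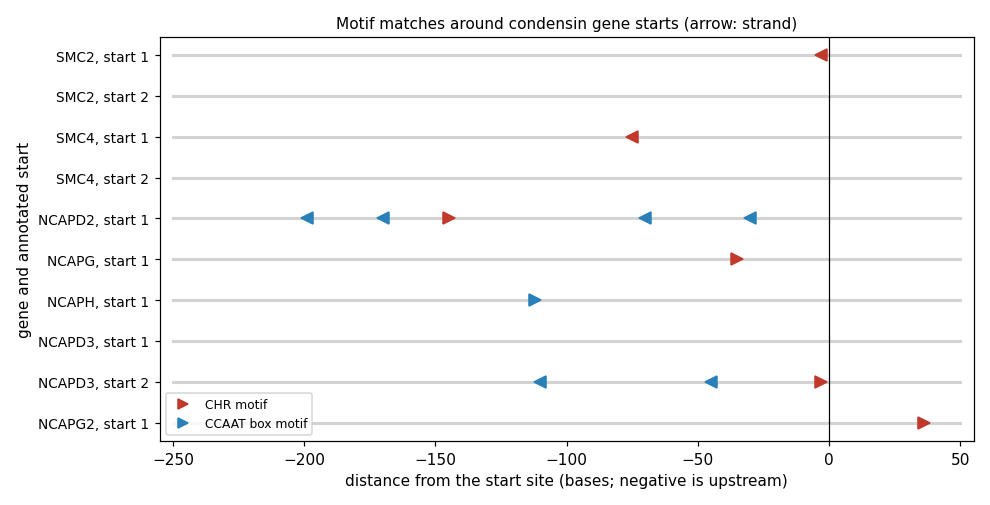
Matches of the CHR motif (red) and the CCAAT box (blue) in 10 promoter windows of 7 condensin genes, by distance from the annotated start in bases; arrowheads point along the strand of the match. Matches to the CHR motif stand in 6 windows of 6 genes, at positions from -145 to 36, and CCAAT boxes in 3.

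The deposited values were raw signal intensities, whose median over all rows ranged from 83.0 to 102.2 between arrays, and each array detected 12730 to 13469 rows at a p under 0.05. Values below are log2 intensities after background correction and quantile normalization, on 13285 rows (35.1%) detected on at least 3 of the 6 arrays. STAU1, the gene carried by the plasmid, was at 11.19, 11.38 and 11.36 in control and 11.39, 11.51 and 11.47 in Stau1, a difference of 0.15 (SE 0.09) with no overlap (exact permutation p = 0.1, two-sided, the smallest that 3 against 3 arrays can give) and a limma adjusted p of 0.999. Whether its probes read the plasmid's transcript is not given in the sources used here. The HEK293T markers VIM, KRT8, KRT18, NEFM and NEFL were detected on all 6 arrays. All 5 had lower means in Stau1, by 0.02 to 0.61, of which those of NEFM and VIM were smaller than the 0.0679 to which median scaling moved the median of all rows, and KRT8, a keratin named here after its values were seen, differed by -0.61 (SE 0.17, limma unadjusted p = 0.0037, adjusted p = 0.999). The groups did not overlap for KRT8, VIM and, as given above, STAU1, beside 7.91% of all 13285 rows. A limma unadjusted p under 0.05 was found in 3.73% of all rows. The part of these marker differences in the results below was not tested. The 5 mitotic markers (CCNB1, CDC20, PLK1, AURKA and BUB1) were detected on all arrays as well, with differences from -0.10 to 0.08. Among genes of other cell types, PTPRC, CD3E, HBB, ALB and UMOD were detected on 0 arrays. In contrast, PECAM1 (6.01 to 6.53) and COL1A1 (5.46 to 6.17) were detected on all 6. PECAM1 differed by -0.20 and COL1A1 by -0.25. The groups did not overlap for PECAM1, beside the same 7.91% of all rows. The part of PECAM1 and COL1A1 in the differences below was not tested. Control replicate 3 correlated with the Stau1 arrays at r = 0.995 to 0.996 across rows, with control replicate 2 at 0.992 and with control replicate 1 at 0.987. Control replicate 2 correlated with the Stau1 arrays at 0.991 to 0.994 and with control replicate 1 at 0.990, and control replicate 1 correlated with the Stau1 arrays at 0.989 to 0.991.

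**Figure D2:**
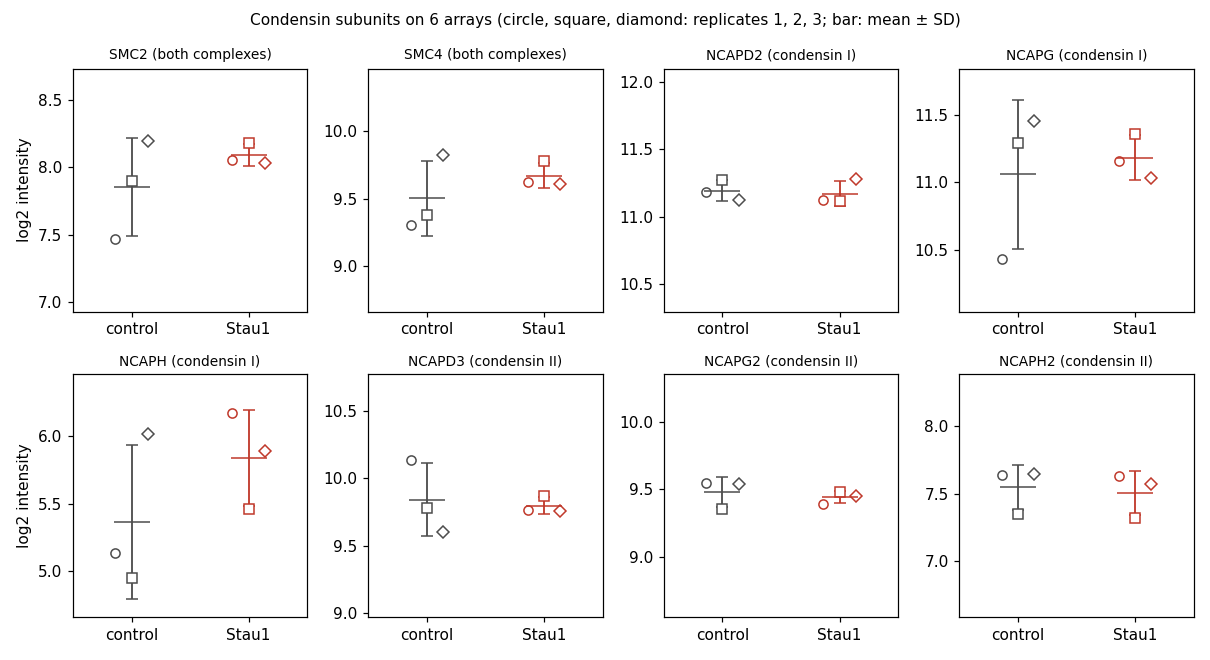
Log2 intensity of the 8 condensin subunits on each array; circle, square and diamond are replicates 1, 2 and 3, and horizontal and vertical bars give the group mean ± SD (n = 3). All panels span the same height on the log2 axis, and the groups overlap in each; the SD of NCAPG was 0.55 in control and 0.17 in Stau1.

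The core ATPases were considered first, as both complexes need them. SMC2 measured 7.47, 7.90 and 8.19 in the control replicates and 8.05, 8.18 and 8.03 in the Stau1 replicates. The Stau1 values lay close together, inside the span of the controls, of which replicate 3 was the highest array of all and replicate 1 the lowest. The control mean was 7.85 ± 0.36 (SD, n = 3) and the Stau1 mean 8.09 ± 0.08 (SD, n = 3), a difference of 0.24 (SE 0.18, 95% confidence interval -0.14 to 0.61, limma adjusted p = 0.999, exact permutation p = 0.5). As a fold, the interval ran from 0.905 to 1.53. SMC4, its partner in the dimer, measured 9.31, 9.38 and 9.82 in control and 9.63, 9.78 and 9.61 in Stau1. It showed the same order among the controls, and again the Stau1 values lay within the control span. Its means were 9.50 ± 0.28 (SD, n = 3) and 9.67 ± 0.09 (SD, n = 3), differing by 0.17 (SE 0.14, interval -0.13 to 0.47 or 0.911- to 1.38-fold, limma adjusted p = 0.999, exact permutation p = 0.4). The rows of SMC2 and SMC4 are averages over several probes, so that a probe which differed from the others could not be seen.

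Among the HEAT-repeat subunits of condensin I, NCAPD2 was the more even. It measured 11.18, 11.27 and 11.12 in control and 11.12, 11.11 and 11.28 in Stau1, and both groups covered nearly the same values. Its difference was -0.02 (SE 0.09), and the interval, -0.23 to 0.18 or 0.855- to 1.13-fold, was the narrowest of the 8 subunits. NCAPG, which pairs with NCAPD2 on the kleisin, measured 10.43, 11.29 and 11.45 in control and 11.16, 11.36 and 11.03 in Stau1. Control replicate 1 stood well below the other 5 arrays, and the rest lay much closer to each other. The control range of 1.02 was reached or exceeded by 1.45% of the 13285 rows. The difference between means was 0.12 (SE 0.20, interval -0.31 to 0.56 or 0.805- to 1.47-fold), and without control replicate 1 it was -0.19 (SE 0.11, limma adjusted p = 0.971). The low value was already in the deposited intensities of NCAPG, 1142, 2381 and 3582 in control and 2204, 2916 and 2327 in Stau1, a 3.14-fold range over arrays, while the standard error over the 43 to 50 beads of each array was 2.85% to 4.29% of the intensity.

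In condensin II, NCAPD3 measured 10.14, 9.78 and 9.60 in control and 9.77, 9.87 and 9.76 in Stau1. Here the order of the controls was the opposite of that in SMC2, SMC4 and NCAPG, with replicate 1 the highest of all arrays and replicate 3 the lowest, although the deposited intensities, 936, 873 and 1064 in control, had replicate 3 as the highest control. The difference was -0.04 (SE 0.13, interval -0.33 to 0.25 or 0.794- to 1.19-fold). NCAPG2, its partner, measured 9.55, 9.35 and 9.54 in control and 9.39, 9.48 and 9.45 in Stau1. All 6 values were close, and the difference was -0.04 (SE 0.11, interval -0.28 to 0.20 or 0.823- to 1.15-fold). The limma adjusted p was 0.999 for each of these 4 HEAT-repeat subunits, and exact permutation p-values ran from 0.6 to 0.9.

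The kleisins close the ring, and each defines its complex. NCAPH, the kleisin of condensin I, measured 5.13, 4.95 and 6.01 in control and 6.17, 5.46 and 5.89 in Stau1. Control replicates 1 and 2 were below all Stau1 arrays, whereas control replicate 3 lay between the Stau1 values. Only control replicate 3 among the controls passed the detection p of 0.05 (0.104, 0.227 and 0.0145), compared with all Stau1 arrays (0.0132, 0.0329 and 0.0211), so the level on the other control arrays was not distinguishable from background. NCAPH thus entered the test through all 3 Stau1 arrays and 1 control array. Group means were 5.37 ± 0.57 (SD, n = 3) and 5.84 ± 0.36 (SD, n = 3), a difference of 0.48 (SE 0.25, interval -0.06 to 1.01 or 0.957- to 2.02-fold, limma unadjusted p = 0.0794, adjusted p = 0.999, exact permutation p = 0.3). With the background inferred from all rows in place of the rows of 1 probe, this difference was 0.02 and that of SMC2 0.05. With 1 array left out it ran from 0.26 (without control replicate 2) to 0.64 (without Stau1 replicate 2).

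NCAPH2, the kleisin of condensin II, measured 7.64, 7.35 and 7.65 in control and 7.63, 7.32 and 7.57 in Stau1. In each group replicate 2 was the lowest and the remaining values were close, and the groups covered the same range. The difference was -0.04 (SE 0.16, interval -0.38 to 0.29 or 0.771- to 1.23-fold, limma adjusted p = 0.999, exact permutation p = 0.5). Its row, too, is an average over several probes.

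**Figure D3:**
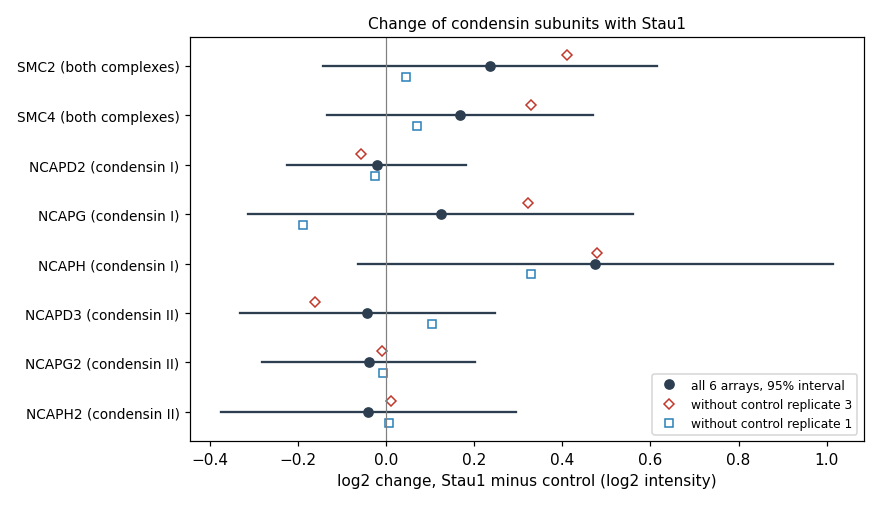
Difference between the Stau1 and control means for each subunit on the log2 scale, with the 95% confidence interval from limma (filled circles and lines), and the difference without control replicate 3 (red diamonds) or without control replicate 1 (blue squares). Every interval spans 0; that of NCAPH runs from -0.06 to 1.01, and NCAPG lies at 0.32 without control replicate 3 and at -0.19 without control replicate 1.

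Over the 8 subunits, all of which passed the filter, 4 were higher and 4 lower in Stau1, a split that median scaling turned to 8 higher. At an adjusted p under 0.05, 0 of 8 were called, as were 0% of all 13285 rows. Without adjustment, 0 of 8 had a p under 0.05, beside 3.73% of all rows (495). With array weights 1 of 8 did, NCAPH (limma unadjusted p = 0.0129), beside 1297 of the 13285 rows. With a replicate block it was again NCAPH alone (limma unadjusted p = 0.0428), beside 604 of the 13285 rows. Groups that did not overlap were found in 0 of 8, beside 7.91% of all rows. The median difference was 0.05, against -0.0021 over all rows, and its median size regardless of sign was 0.0831, against 0.0926. By complex, the median was 0.20 for the ATPases common to both, 0.12 for the 3 other subunits of condensin I and -0.04 for the 3 other subunits of condensin II; differences between the complexes were not tested.

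The SD between arrays was larger in control than in Stau1 for 7 of the 8 subunits, all but NCAPD2. For NCAPH2 the SDs were nearly equal, at 0.168 in control and 0.165 in Stau1. The difference in spread between the groups was not tested. The median SD of the subunits was 0.275 in control and 0.0936 in Stau1, and over all rows 0.174 and 0.117. The widest control ranges were those of NCAPH (1.07, reached or exceeded by 1.23% of rows), NCAPG (1.02) and SMC2 (0.72, by 7.41% of rows), followed by NCAPD3 (0.53, by 20.2%) and SMC4 (0.52, by 21.9%). NCAPD2 lay at the other end, with a control range of 0.15 that 85.8% of rows reached or exceeded. For SMC2, SMC4 and NCAPG, the control arrays fell in one order, with replicate 1 the lowest, replicate 2 between and replicate 3 the highest; the numbers are only names. That order was found in 3 of 8 subunits (37.5%), in 19.0% of all rows, in 3 of 17 genes that act with condensin, in 6 of 15 genes of cohesin, Smc5/6 and SMCHD1, and in 2 of 5 mitotic markers. Over all rows, control replicate 1 was the lowest array in 25.5% and control replicate 3 the highest in 14.8%, while among the subunits they were so in 3 and 4 of 8, and among the 15 genes of cohesin, Smc5/6 and SMCHD1 in 10 and 1.

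**Figure D4:**
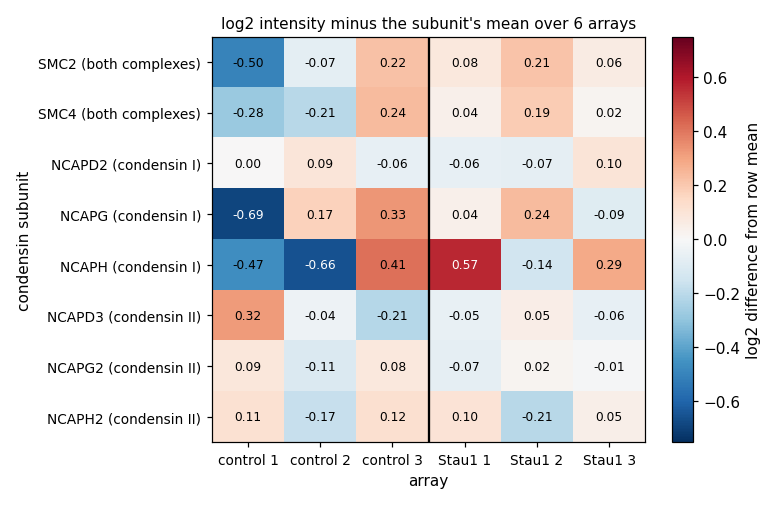
Log2 intensity of each subunit minus its mean over the 6 arrays, with arrays in columns, controls left of the black line. Control replicate 1 is lowest for SMC2 (-0.50), SMC4 (-0.28) and NCAPG (-0.69) and highest for NCAPD3 (0.32); the Stau1 columns are paler in most rows, with NCAPH on Stau1 replicate 1 (0.57) the strongest exception.

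Before normalization, control replicate 3 had the highest intensity for 7 of the 8 subunits and control replicate 1 the lowest for 5. After normalization these counts were 4 and 3. NCAPD2, for example, was deposited at 1884, 2354 and 2889 in control and 2146, 2484 and 2770 in Stau1, a 1.53-fold range that shrank to 11.11 to 11.28 on the normalized log2 scale. The fold between the highest and the lowest array ranged from 1.27 for NCAPD3 to 3.14 for NCAPG, and the standard error over beads from 2.29% to 6.58% of the intensity over all subunits and arrays. For NCAPG2 the deposited range was 1.59-fold, for NCAPH2 1.53-fold, for SMC2 2.17-fold, for SMC4 2.21-fold and for NCAPH 1.81-fold.

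**Figure D5:**
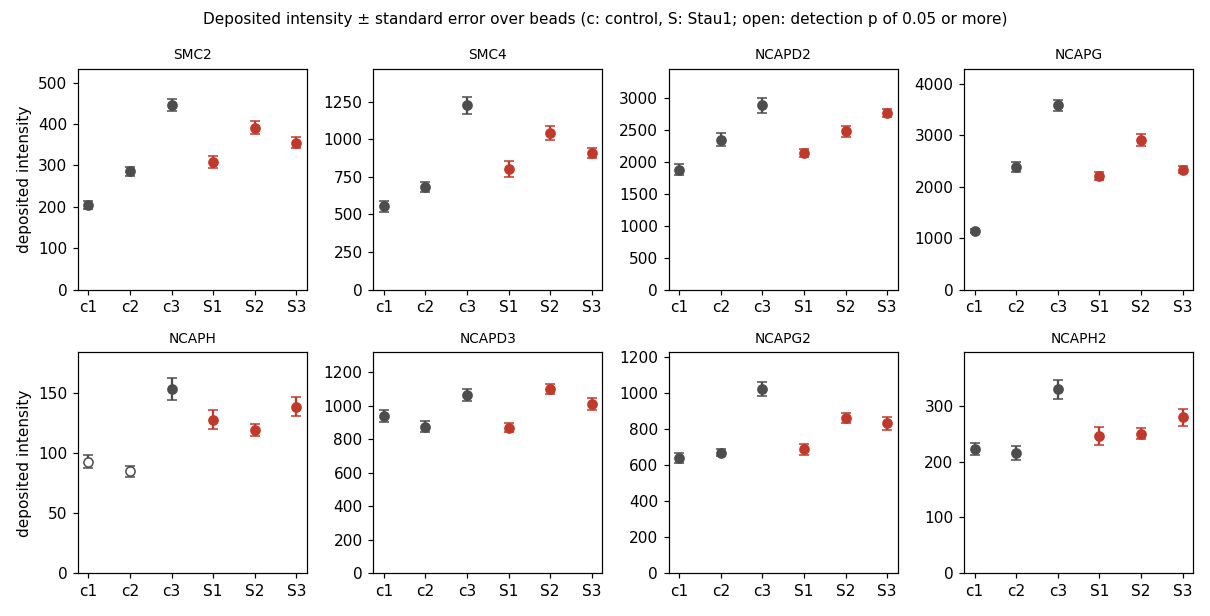
Deposited signal intensity of each subunit on the control (c1 to c3, grey) and Stau1 (S1 to S3, red) arrays, before background correction and normalization; error bars are the deposited standard error over beads, and open circles mark a detection p of 0.05 or more. Control replicate 3 is highest in every panel but that of NCAPD3, and open circles appear only for NCAPH on control replicates 1 and 2.

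Each array was left out in turn, and the number of rows called over the whole table moved most without control replicate 3. That array correlated more closely with the Stau1 arrays than with the other controls. Why the number moved was not tested, and the p-values that follow describe these arrays and support nothing. SMC2 was then 0.41 higher in Stau1 (SE 0.17, limma unadjusted p = 0.0282, adjusted p = 0.322), SMC4 0.33 higher (SE 0.12, unadjusted p = 0.0184, adjusted p = 0.292) and NCAPH 0.48 higher (SE 0.12, unadjusted p = 0.00129, adjusted p = 0.121). Both remaining control arrays of NCAPH were at background, so that of the arrays left only those of Stau1 detected it. The rows in this fit were those that passed the filter on all 6 arrays, control replicate 3 included. SMC2, SMC4 and NCAPH were the 3 of 8 subunits at an unadjusted p under 0.05, beside 12.8% of all rows, and 0 of 8 were called, beside 0.271% (36 rows). NCAPG was 0.32 higher (SE 0.19, unadjusted p = 0.113, adjusted p = 0.511). Differences in the remaining subunits were -0.06 for NCAPD2, -0.16 for NCAPD3, -0.01 for NCAPG2 and 0.01 for NCAPH2. Without control replicate 1 instead, the array lowest for both ATPases, SMC2 differed by 0.04 and SMC4 by 0.07.

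Genes that act on or with condensin were read from a list of 18, which held the kinases that phosphorylate it (CDK1 with CCNB1, PLK1, TTK, AURKB and casein kinase 2), the chromosomal passenger complex, topoisomerase II, KIF4A, and regulators such as MCPH1, which restrains condensin II. Of these, 17 passed the filter (PHF8 did not), and 9 were higher and 8 lower in Stau1, with a median of 0.02. None was called. TOP2A, the topoisomerase II of proliferating cells, had the largest negative difference, at 10.87, 10.95 and 10.34 in control and 10.21, 10.48 and 10.24 in Stau1, a difference of -0.41 (SE 0.15, limma adjusted p = 0.999). KIF4A, the chromosome-bound kinesin that works beside condensin I, had the largest positive difference, at 8.94, 8.87 and 9.43 in control and 9.41, 9.47 and 9.36 in Stau1, or 0.33 (SE 0.15, limma adjusted p = 0.999). For both genes control replicate 3 lay away from the other controls and within the Stau1 values; without it TOP2A differed by -0.60 (adjusted p = 0.0524) and KIF4A by 0.51 (adjusted p = 0.120). These 2 and INCENP, the scaffold of the passenger complex, were the 3 of 17 at an unadjusted p under 0.05, beside the 3.73% of all rows. This count was 0 with median scaling, beside 229 of the 13285 rows, and without control replicate 2, beside 307. It was 1 without Stau1 replicate 1, beside 395 rows, and without Stau1 replicate 3, beside 241. It rose to 5 with array weights, where 1297 of the 13285 rows had such a p. Without control replicate 3 it was also 5, beside 12.8% of all rows. INCENP (0.33, SE 0.15) and MCPH1 (0.27, SE 0.15), singled out after their values were seen, were the 2 of 17 whose groups did not overlap, beside the 7.91% of all rows given above.

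The other SMC complexes were read for comparison. Of 16 genes of cohesin, which holds sister chromatids together, of the Smc5/6 complex and of SMCHD1, 15 passed the filter (SMC5 did not), 9 were higher and 6 lower, and the median was 0.04. None was called and no groups were without overlap. SMC1A, an ATPase of cohesin, had the largest positive difference, at 5.14, 5.48 and 5.61 in control and 6.03, 5.70 and 5.59 in Stau1 (0.36, SE 0.17, but 0.02 when all rows set the background), and was the 1 gene of 15 at an unadjusted p under 0.05, beside the 3.73% of all rows. That count was 0 under most alternatives and 5 without control replicate 3, a setting in which 12.8% of all rows had such a p. NSMCE1, a subunit of Smc5/6, had the largest negative difference, -0.18 (SE 0.15), which was 0.0048 without control replicate 1. The median SD of this list was 0.243 in control and 0.0835 in Stau1, which lies near that of the condensin subunits.

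Transcripts were also ranked by how closely their centred values over the 6 arrays followed the mean of the 8 subunits, which lay at -0.18, -0.12 and 0.14 in control and 0.08, 0.04 and 0.04 in Stau1. The closest were ZNF622, at a root mean square distance of 0.0122 on the log2 scale, XPC at 0.0186 and IL17D at 0.0186. The subunits themselves lay farther from their own mean, from 0.0932 for SMC4 to 0.358 for NCAPH. ZNF622, XPC and IL17D were picked as the closest of all tested rows outside the subunits. Their smaller distances therefore say nothing about a link to condensin, which was not tested.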

How the data were processed

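Total RNA of 3 control and 3 Stau1 samples was measured on 1 array each, grouped by the transfection in the labels. The authors deposited a BeadStudio gene profile with no normalization: per gene and array, a signal intensity, its standard error over beads, the number of beads, and a detection p-value against the negative control beads. No value column was left without a sample. With limma 3.58.1 in R 4.3.3, intensities were corrected by normexp (offset 16), quantile normalized and log2 transformed. The background mean and SD (74.6 to 92.7 and 15.2 to 18.2) were inferred from the detection p-values of 30932 rows of 1 probe. Rows detected (p under 0.05) on 3 or more arrays were tested with lmFit and eBayes with a variance trend, two-sided, with Benjamini-Hochberg adjustment over all 13285 rows and a threshold of 0.05; exact permutation tests were two-sided. The precision is limited by the number of arrays.

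The members, lists and tests were chosen with earlier results of these data known. Named were the 8 subunits, STAU1, the largest positive and negative difference in each other list, and the 3 rows closest in profile; others are said to have been singled out after their values were seen, and markers are named as lists. Older symbols were matched through RefSeq (CDC2 for CDK1, KIAA0261 for WAPAL). Alternatives were no background correction, the background from all rows, an offset of 50, cyclic loess, median scaling, a generalised log, no filter, a stricter filter, array weights, a fit with no variance trend, a replicate block, the methods' t-test and leaving out each array. The promoter windows of NCAPH2 and probe sequences were not analysed here. One marker of another cell type is not reported here.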

Additional observations from a re-analysis of the deposited data

How the results depend on the processing

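Under all alternatives, 0 of the 8 condensin subunits were called, in 142 pairs of subunit and setting; the lowest adjusted p of a subunit was 0.379 with all arrays (NCAPH with array weights) and 0.121 with an array left out. The difference of SMC2, SMC4 and NCAPH was positive under every alternative that gave a value. The stricter filter gave none for SMC2 and NCAPH, and the background from all rows left 0.05 for SMC2 and 0.02 for NCAPH. Small differences changed sign in 16 pairs. With median scaling, which moved the median of all rows to 0.0679, NCAPD2 was at 0.0653, NCAPD3 at 0.0454, NCAPG2 at 0.0543 and NCAPH2 at 0.0375, and the median of the condensin-linked genes was 0.112. With array weights, NCAPD2 was at 0.0018, NCAPG at -0.0627, NCAPG2 at 0.0062 and NCAPH2 at 0.0470. With each array left out in turn, values ran from -0.0768 to 0.0183 for NCAPD2, -0.189 to 0.321 for NCAPG, 0.261 to 0.638 for NCAPH, -0.162 to 0.104 for NCAPD3, -0.138 to 0.0533 for NCAPH2 and -0.331 to 0.0048 for NSMCE1, and 0 to 36 called rows over the whole table, the 36 when control replicate 3 was left out. What caused these shifts was not tested.

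The median of the subunits ran from -0.0308 with the stricter filter, which removed SMC2 and NCAPH, to 0.139 with median scaling. With all arrays, the number of the 13285 rows at an unadjusted p under 0.05 ran from 229 (median scaling) to 1297 (array weights), against 495. With no filter it was 1565, but of 37879 rows. The methods' t-test, run on the values processed here, gave 464 rows at an unadjusted p under 0.05, 0 of the subunits, and 0 after Benjamini-Hochberg adjustment. No fold threshold was applied to these counts, whereas the paper set one beside its p-value.

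Same-numbered arrays correlated in their deviations at 0.0154, 0.260 and -0.139, and the numbers were taken as names only; under the replicate block, 0 rows and 0 of the subunits were called (NCAPH had an unadjusted p of 0.0428), and only control replicate 2 correlated best with its own number. The signal over background limits NCAPH, and the difference of SMC2 also fell to 0.05 with the background from all rows. The detection p of SMC2, a row of several probes, reached 0.0239 on Stau1 replicate 2. Its intensity there was 391, above the 205 on control replicate 1, where the detection p was 0.0203.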
